A study of Rattus norvegicus with 11 samples.

Results

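Fmr1 and 7 other genes that control translation near synapses, Fxr1, Fxr2, Eif4e, Eif4ebp1, Eif4ebp2, Cpeb1 and Pabpc1, were measured by 12 of the 41012 different probes on the array, which carry 35581 different names. Fmr1 was selected on the heroin and saline contrast itself, because the study listed 1 of its probes as changed, so its values are given as a description without a test. The study also assayed Fmr1 by RT-qPCR and did not count it among the genes whose change that method bore out. The other 7 genes were chosen by function, though with earlier results of these data known. Fxr1 and Fxr2 appear on the array under the older names Fxr1h and Fxr2h, which RefSeq lists as synonyms, and these account for 2 of the 12 probes. Fmr1, Eif4e, Eif4ebp1 and Eif4ebp2 had 2 probes each, which were kept apart and are called upstream and downstream by their order along the strand that each probe reads.

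RNA came from the medial prefrontal cortex (mPFC) of male rats aged 4 months, with 1 array per rat. The heroin group was 6 rats that had self-administered heroin through a jugular catheter by licking a spout. The saline group was 5 rats that were yoked to such animals and received saline whenever their partner received heroin, and a saline rat 1 was not analysed here. Rats of both groups had 14 days of enforced abstinence and then an extinction session without drug, directly after which tissue was taken, so the values describe an abstinent and recently tested cortex, not acute heroin.

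FMRP, the product of Fmr1, is an RNA-binding protein that travels with mRNA into dendrites and holds back its translation until synaptic activity relieves the block; its loss causes fragile X syndrome. Fxr1 and Fxr2 encode its closest relatives. Eif4e encodes the protein that binds the cap of an mRNA and recruits the initiation machinery, and the proteins of Eif4ebp1 and Eif4ebp2 sequester it until mTOR phosphorylates them. Cpeb1 encodes a protein that binds the cytoplasmic polyadenylation element of dormant mRNAs, and Pabpc1 encodes the major cytoplasmic protein on the poly(A) tail.

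The probe sequences are shown first because the 2 Fmr1 probes gave different results. Positions are those of build rn3 in the array files. The Fmr1 upstream probe (A_44_P180017) lies at chrX:154859928-154860626 on the plus strand, and since its 60 bases spread over 699 bases of genome it crosses an intron. The Fmr1 downstream probe (A_44_P285507), the one the study listed, lies without a gap at chrX:154866819-154866878, 6192 bases further along. Fxr1 at chr2:120306489-120307253 and Fxr2 at chr10:56482637-56482786, both on the plus strand, were also measured across an intron. The Eif4e probes lie at chr2:236090339-236090398 (upstream, A_44_P203514) and chr2:236091170-236091229 (downstream, A_44_P700084), both on the plus strand and 771 bases apart. Probes that cross an intron are printed whole and the first 30 bases of the others, 5′ to 3′.
Fmr1 upstream: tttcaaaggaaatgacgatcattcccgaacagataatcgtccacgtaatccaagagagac
Fmr1 downstream: tgttaccattggaaatttcacatgtcatag
Fxr1: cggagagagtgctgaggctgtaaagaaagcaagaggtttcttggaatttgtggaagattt
Fxr2: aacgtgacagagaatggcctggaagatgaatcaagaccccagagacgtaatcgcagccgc
Eif4e upstream: ggtgaaggatccaggactatgacagaaagg
Eif4e downstream: gttgcagtatggttctctgtaaacttgaaa

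No other probe on the array shared 20 or more bases with any of these 6 probes on the same strand. A probe named after an expressed sequence tag shared an identical stretch of 28 bases with the Fmr1 downstream probe, on the opposite strand, and was detected on 2 of 11 arrays. The Fmr1 downstream probe itself was detected on all 11.

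Signals are given as multiples of each array's median over all non-control probes. The array medians lay between 42.7 and 78.3 intensity units in the heroin rats and between 58.0 and 83.2 in the saline rats, and 28185 to 33209 and 30098 to 33835 probes were detected. Every heroin array had position 4 and every saline array position 3 in its scan, so array position and group cannot be told apart. All 5 neuronal markers were detected on every array, as were the 3 excitatory cortical neuron markers on the array, and the lists of 9 cell types held no gene whose brightest probe passed the thresholds used below. The mean log2 signal of the excitatory neuron markers was 4.35 to 5.31 in the heroin rats and 4.39 to 4.65 in the saline rats. This difference of 0.31 was the largest of the 9 lists. The others were 0.21 (interneurons), 0.20 (astrocytes), 0.18 (neurons), 0.16 (microglia) and -0.05 to -0.01 (striatal neurons, oligodendrocytes, endothelium and blood). The median of all tested probes was itself 0.18 higher in the heroin rats. The part of these differences in the results below was not tested. In bulk tissue, fewer cells of a type and less RNA per cell cannot be told apart.

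Fmr1 signal at the downstream probe was higher in the heroin rats. It was lowest at 19.2, with a median of 21.4 and a highest value of 27.2 array medians, in the heroin rats, and it was 10.9, 15.4, 17.0, 18.9 and 14.0 in saline rats 2 to 6. All 6 heroin rats were above all 5 saline rats, though heroin rat 1 at 19.2 and saline rat 5 at 18.9 were nearly level. The means were 21.8 ± 2.83 (SD, n = 6) and 15.3 ± 3.06 (SD, n = 5), a log2 difference of 0.53 (SE 0.15) or 1.45-fold. Every heroin rat was above every saline rat at 423 of the 25555 probes tested (1.66%), and this probe was chosen by the same contrast, so nothing is read from its separation.

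The Fmr1 upstream probe did not show this. Its signal ranged from 0.687 to 3.56 array medians with a median of 1.97 in the heroin rats and was 1.55, 1.97, 2.27, 1.82 and 1.49 in saline rats 2 to 6. The saline values were close together and lay within the range of the heroin values, which held both the highest rat (heroin rat 4) and the lowest (heroin rat 5) of the 11 rats. The log2 difference was -0.02 with an SE of 0.30. Without heroin rat 4 it was -0.22 and without heroin rat 5 it was 0.26, so a single rat set its sign. This probe was, as a geometric mean, 6.91 times the dimmest signal scored as well above background on the same array, against 71.0 times for the downstream probe.

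**Figure D1:**
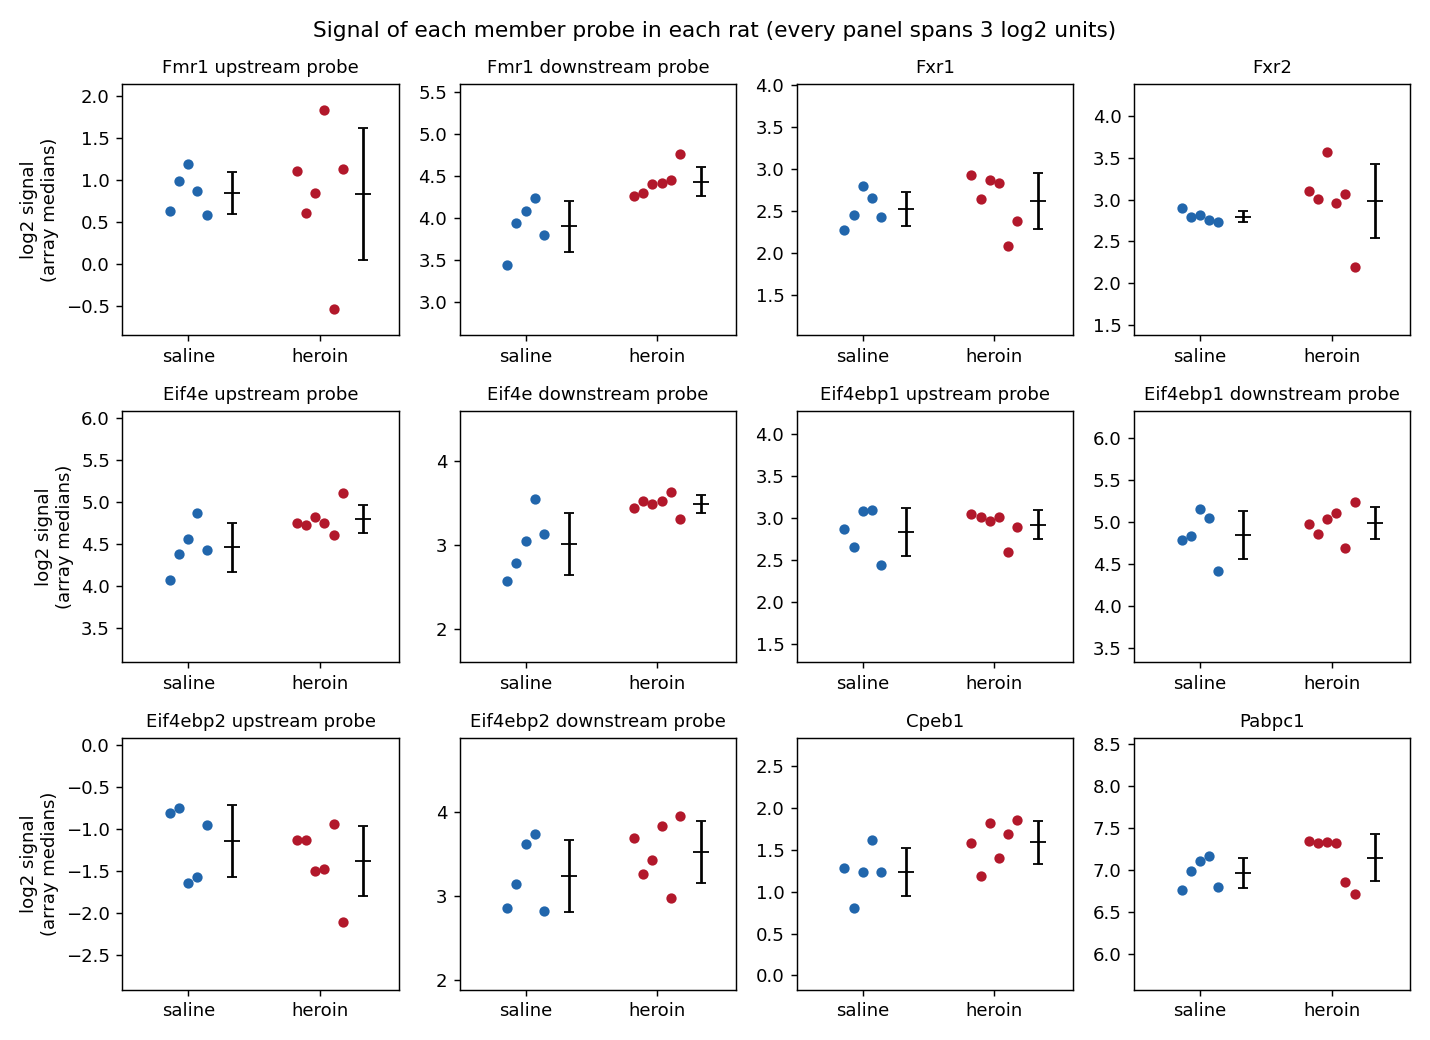
Log2 signal (in array medians, vertical axis) of each of the 12 probes in each saline (blue) and heroin (red) rat, ordered by rat number, with the group mean and SD in black; every panel spans the same number of log2 units. The heroin rats lie above the saline rats without overlap only for the Fmr1 downstream probe, while the Fmr1 upstream probe has heroin values from 0.687 to 3.56 array medians around the saline values.

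Within 1 rat the ratio of the Fmr1 probes is free of any scaling by a single factor per array. Quantile normalization does move it, and there the group differences of the probes lay 0.42 apart. The log2 ratio of downstream to upstream was 3.61 ± 0.80 (SD, n = 6) after heroin and 3.06 ± 0.23 (SD, n = 5) after saline. It ran from 2.59 to 5.00 and from 2.82 to 3.38. In 4 of 6 heroin rats the ratio was above the highest saline rat, and in heroin rat 4 it was below the lowest. The groups overlapped, and the difference of 0.55 was smaller than the SD among the heroin rats. Without heroin rat 5 the probes differed by 0.27 in their group difference.

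For comparison, the Eif4e ratio differed by 0.14 and the Eif4ebp1 ratio by 0.04 between the groups. Among the heroin rats these ratios had an SD of 0.27 and 0.17. The Eif4ebp2 ratio differed by 0.52, about as much as that of Fmr1, with an SD of 0.74 in the heroin rats and 0.83 in the saline rats. Its upstream probe was well above background on 9 of 11 arrays. A wide spread between the probes of a gene was thus measured for Fmr1 and for Eif4ebp2.

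**Figure D2:**
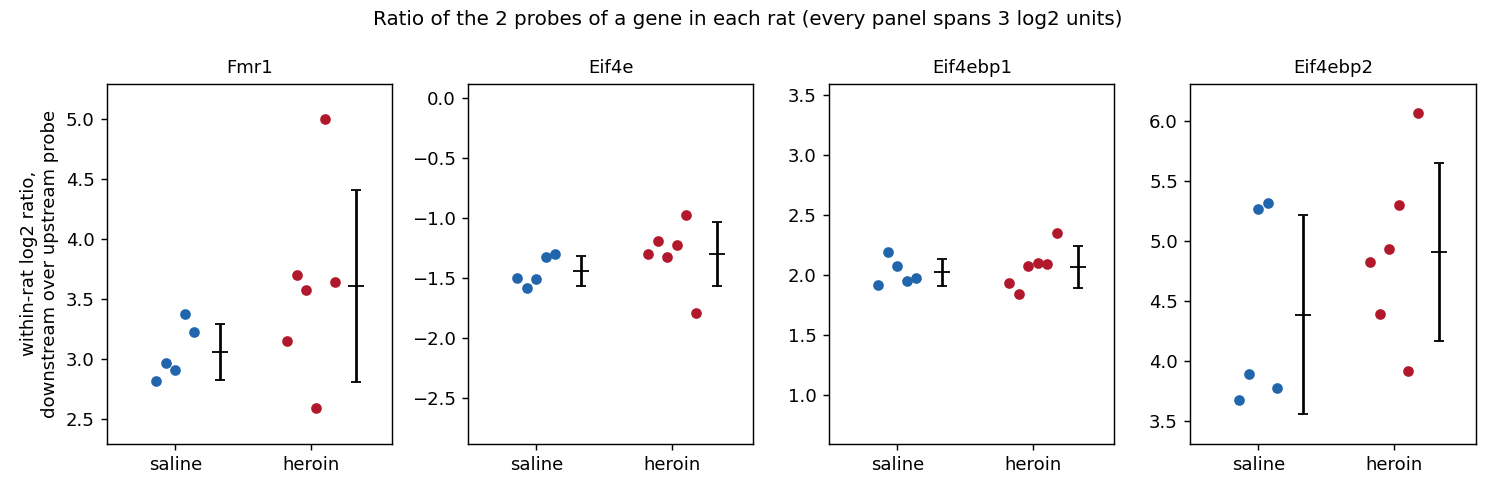
Within-rat log2 ratio of the downstream over the upstream probe (vertical axis) for Fmr1, Eif4e, Eif4ebp1 and Eif4ebp2, for each saline (blue) and heroin (red) rat, with group mean and SD in black. The Fmr1 ratios of the heroin rats spread from 2.59 to 5.00, those of Eif4ebp2 from 3.92 to 6.07, and the groups overlap for all 4 genes.

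The sizes depended on how the arrays were scaled. With the scaling of the study, to each array's 50th percentile, the median of all tested probes was itself 0.18 higher (log2) in the heroin rats, and 78.7% of probes had the higher mean there. Relative to that median the Fmr1 downstream probe was higher by 0.35, or 1.27-fold. It was higher by 0.28 (SE 0.12) after quantile normalization and by 0.31 after scaling to the 75th percentile. After quantile normalization 5 of 6 heroin rats were above the highest saline rat, and the groups overlapped. The Fmr1 upstream probe had log2 differences of -0.14 and -0.24 under those scalings.

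Without heroin rat 6 the difference of the Fmr1 downstream probe was 0.47 and without saline rat 2 it was 0.42, both under the 1.4-fold threshold of 0.49. It was 0.62 without saline rat 5.

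Heroin and saline rats of the same number were scanned together, except heroin rat 1, whose scan held no saline array used here. Within these 5 scans the Fmr1 downstream probe was higher in the heroin rat every time, by 0.86, 0.46, 0.33, 0.22 and 0.96 (log2) for rats 2 to 6. After quantile normalization it was also higher in all 5 scans, by 0.08 to 0.52. With the scan as a block its difference was 0.57 (SE 0.18). This probe was chosen by the contrast of these same rats, and 78.7% of all probes had the higher mean in heroin. Array position also differed between the groups in every scan, so nothing is read from the within-scan differences of this probe. The upstream probe was higher in the heroin rat in 2 of 5 scans, with differences from -1.40 to 0.65.

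Among all 25555 probes tested, 694 (2.72%) passed both thresholds, an unadjusted limma p under 0.02 together with a fold change of 1.4 or more. Of these, 457 (1.79% of all tested) were higher in heroin. The cut-offs are those of the study's methods, which took p from an analysis of variance without equal variances and not from limma. By the methods' t-test 308 probes passed. No probe (0%) had an adjusted p under 0.05 by limma or by the methods' t-test, while 4723 and 4127 probes had an unadjusted p under 0.05. The smallest adjusted p of any probe was 0.263 (limma, Benjamini-Hochberg). Of the 12 probes of the 8 genes, 11 were detected on all arrays and tested, and 1, the Fmr1 downstream probe, passed both thresholds. Since Fmr1 was selected on this contrast, nothing is read from that count. Of the 11 tested probes 10 had the higher mean in heroin, but 6 lay above the median change of all probes, and their own median difference was 0.19 against 0.18 for all probes. After quantile normalization 5 of the 11 were higher, with a median of -0.04 against 0.01.

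Neither relative of FMRP passed the test. Fxr1 signal was 4.22 to 7.57 with a median of 6.67 array medians in heroin rats and 4.83, 5.47, 6.92, 6.26 and 5.35 in saline rats 2 to 6, and the groups overlapped. Its log2 difference was 0.10 (SE 0.17, adjusted p = 0.695, limma), which became -0.12 after quantile normalization and -0.11 after 75th-percentile scaling.

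Fxr2 signal was 4.58 to 11.8 with a median of 8.19 in heroin rats and 7.45, 6.95, 7.02, 6.74 and 6.63 in saline rats. The saline rats were nearly alike, while heroin rat 6 was below all of them and the other 5 heroin rats above. The log2 difference was 0.19 (SE 0.19, adjusted p = 0.527, limma), and -0.04 and -0.03 under quantile and 75th-percentile scaling. Without heroin rat 6 it was 0.34.

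The within-rat log2 ratio of the Fmr1 downstream probe to Fxr1 was higher by 0.43 in the heroin rats (1.82 ± 0.45, n = 6, against 1.39 ± 0.16, n = 5). In 3 of 6 heroin rats it was above the highest saline rat. Its ratio to Fxr2 was higher by 0.35, with 1 heroin rat above all saline rats. These ratios rest on the Fmr1 probe that was chosen for its change and are given as a description.

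Eif4e came closest to the thresholds among the genes chosen by function. At its downstream probe the signal was 9.97 to 12.4 with a median of 11.4 array medians in heroin rats and 5.94, 6.93, 8.31, 11.7 and 8.77 in saline rats 2 to 6. The 6 heroin rats were close together and above 4 of the 5 saline rats, and saline rat 5 lay inside the heroin range. The log2 difference was 0.47 (SE 0.16), or 1.39-fold, with an unadjusted p of 0.00917 and an adjusted p of 0.263 in limma, so it lay just under the fold threshold where the Fmr1 downstream probe lay just above it. It was 0.23 after quantile normalization and 0.25 after 75th-percentile scaling. Without saline rat 5 it was 0.60 and without saline rat 2 it was 0.36. Within scans it was higher in the heroin rat in 5 of 5, by 0.09 to 0.96, and after quantile normalization in 4 of 5. Nothing is read from these counts, since 78.7% of all probes had the higher mean in heroin. Array position also differed between the groups in every scan.

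The Eif4e upstream probe was higher in the heroin rats by 0.33 (SE 0.15, adjusted p = 0.265, limma), which did not pass. Heroin rats had 24.3 to 34.3 array medians with a median of 26.8, and saline rats had 16.7, 20.7, 23.6, 29.2 and 21.5. Saline rat 5 was again inside the heroin range, and the other 4 saline rats were below all heroin rats. After quantile normalization the difference was 0.08.

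The inhibitors of the cap-binding protein differed less. Eif4ebp1 (chr16:69110947-69111006 and chr16:69110748-69110807, minus strand) had log2 differences of 0.09 (SE 0.15, adjusted p = 0.691, limma) upstream and 0.14 (SE 0.15, adjusted p = 0.562, limma) downstream, and both turned negative after quantile normalization, to -0.14 and -0.11, and after 75th-percentile scaling, to -0.13 and -0.08. Its brighter downstream probe was 25.9 to 37.8 with a median of 32.2 array medians in heroin rats and 27.6, 28.6, 35.7, 33.1 and 21.4 in saline rats. The saline rats spanned most of the heroin range.

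Eif4ebp2 (chr20:29578870-29578929 and chr20:29576473-29576532, minus strand) was measured by a bright downstream probe and a dim upstream probe. The downstream probe was 7.90 to 15.5 with a median of 11.9 array medians in heroin rats and 7.29, 8.88, 12.4, 13.4 and 7.07 in saline rats. The groups overlapped over most of their range, and the log2 difference was 0.29 (SE 0.21, adjusted p = 0.397, limma). The upstream probe was well above background on 5 of 6 heroin and 4 of 5 saline arrays and so was not tested. It read 0.232 to 0.523 in heroin and 0.322 to 0.598 in saline rats, a log2 difference of -0.23.

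Cpeb1 (chr1:137635621-137635680, minus strand) was 2.27 to 3.62 with a median of 3.10 array medians in heroin rats and 2.42, 1.75, 2.35, 3.07 and 2.36 in saline rats 2 to 6. In 3 of 6 heroin rats it was above the highest saline rat. The log2 difference was 0.35 (SE 0.16, adjusted p = 0.268, limma), 0.20 after quantile normalization and 0.14 after 75th-percentile scaling.

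Pabpc1 (chr7:72137830-72137889, minus strand) was 105 to 162 with a median of 160.3 array medians in heroin rats and 108, 127, 138, 144 and 111 in saline rats. Heroin rats 1 to 4 were nearly identical and above every saline rat, while heroin rats 5 and 6 were in the lower part of the saline range or below it. The log2 difference was 0.18 (SE 0.15, adjusted p = 0.450, limma), equal to the median of all probes, and -0.063 after quantile normalization and -0.03 after 75th-percentile scaling.

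**Figure D3:**
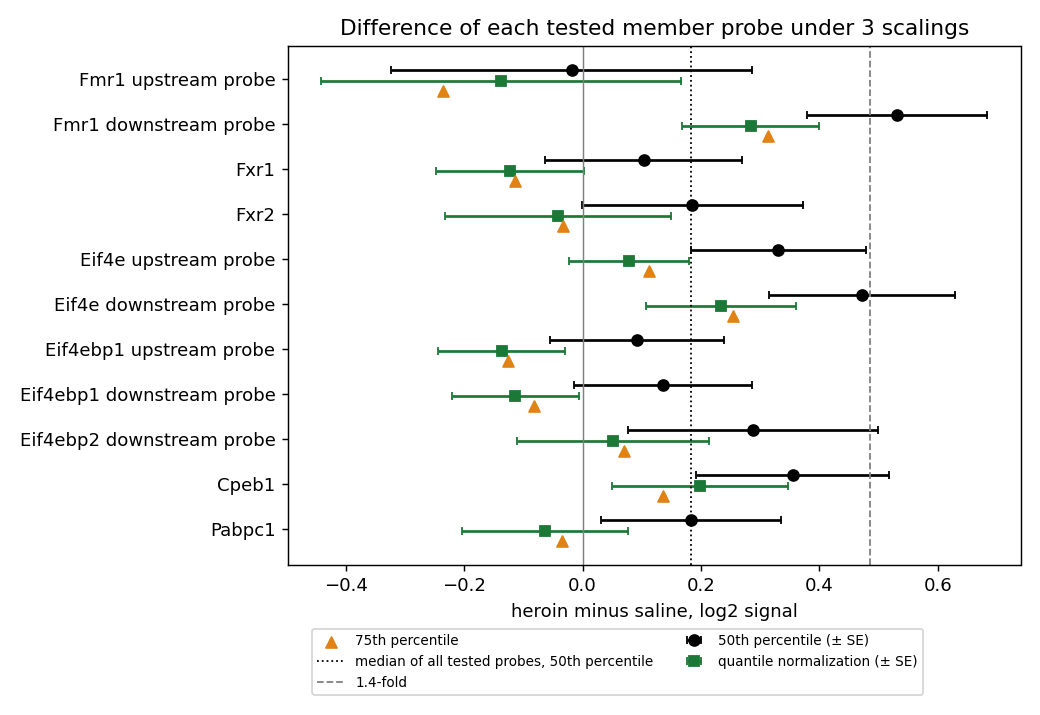
Heroin minus saline log2 difference (horizontal axis) of the 11 tested probes under 50th-percentile scaling (black circles, SE), quantile normalization (green squares, SE) and 75th-percentile scaling (orange triangles); the dotted line is the median of all probes under the first scaling and the dashed line a 1.4-fold change. Under the first scaling only the Fmr1 downstream probe at 0.53 lies past the dashed line, and Fxr1, Fxr2, both Eif4ebp1 probes and Pabpc1 turn from positive to negative under the others.

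The wider machinery was read from a list of 105 names of translation control genes, 77 of which name a probe on the array, with 143 tested probes for 76 genes. Some genes are listed under both an older and a current symbol, so not every name without a probe is an unmeasured gene. In this list 4 probes (2.80%) passed both thresholds, all higher in heroin, against 2.72% of all probes in either direction. The median difference was 0.26 against 0.18 for all probes, and 0.03 against 0.01 after quantile normalization. The 4 genes were Arc, Map1b, Cpeb4 and Elavl4, and none of their probes passed both thresholds under quantile normalization or 75th-percentile scaling.

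Of the FMRP partners and mRNA targets, 2 of 13 probes passed (15.4%, against 2.72% of all probes). Nothing is read from a share of so few probes. Arc (chr7:112806255-112806314), an activity-induced synaptic gene whose mRNA goes to dendrites, was 134 ± 20.6 (SD, n = 6) array medians after heroin and 88.1 ± 35.2 (SD, n = 5) after saline, a log2 difference of 0.70 (SE 0.24, adjusted p = 0.263, limma). Its ranges, 112 to 163 and 45.8 to 121, overlapped. Map1b, which encodes a microtubule-associated protein and is a classical FMRP target, passed at 1 of 4 probes, by 0.53 (SE 0.19, adjusted p = 0.263, limma), while its other probes differed by 0.16 to 0.49. With the scan as a block Map1b no longer passed by its unadjusted p (0.52, SE 0.22, adjusted p = 0.454, limma), while the probes of Arc, Cpeb4 and Elavl4 still did.

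The protein partners of FMRP did not pass at any probe. Cyfip1, which links FMRP to the cap-binding protein and to actin, differed by 0.31 (SE 0.15, adjusted p = 0.272, limma). Both Cyfip2 probes, at 0.25 and 0.35, and both Nufip1 probes, at 0.22 and 0.28, also missed the thresholds. After quantile normalization these 5 probes lay between -0.02 and 0.11.

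In the group of cytoplasmic polyadenylation and Pumilio genes 1 of 20 probes passed (5%, against 2.72% of all probes). This was Cpeb4 (chr10:15966570-15966629), a relative of Cpeb1, at 79.2 ± 14.8 (SD, n = 5 with 1 heroin spot left out) against 52.2 ± 10.8 (SD, n = 5), a log2 difference of 0.61 (SE 0.17, adjusted p = 0.263, limma). The other 3 Cpeb4 probes were dimmer and differed by -0.14 (SE 0.19), 0.35 (SE 0.30) and 0.38 (SE 0.20). Only the dimmest differed in sign, with means of 0.813 array medians in heroin and 0.933 in saline rats. Among the genes of dendritic RNA transport and granules 1 of 37 probes passed (2.7%, against 2.72% of all probes). It was a probe of Elavl4 (chr5:131675185-131675244), which encodes a neuronal mRNA-stabilising protein, by 0.51 (SE 0.15, adjusted p = 0.263, limma). The other 3 Elavl4 probes lay between 0.32 and 0.36.

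No probe passed among 39 of cap binding and initiation, 10 of elongation, 9 of mTOR and MAP kinase input, 5 of the microRNA pathway and 10 of poly(A) binding. Under limma 11, 1, 3, 1 and 0 of these had an unadjusted p under 0.05, as did 18.5% of all tested probes. A probe of Eif4g3, an initiation scaffold, was chosen after its value was seen: it was lower in heroin, by a log2 difference of -0.48 (SE 0.15) that became -0.50 after quantile normalization, where it was the probe of this list past both thresholds. It also passed with the scan as a block, at -0.49 (SE 0.17). This probe was dim, with means of 0.849 array medians in heroin and 1.19 in saline rats. The other 2 Eif4g3 probes, with means of 59.2 and 190 in heroin rats, differed the other way, by 0.18 and 0.30.

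**Figure D4:**
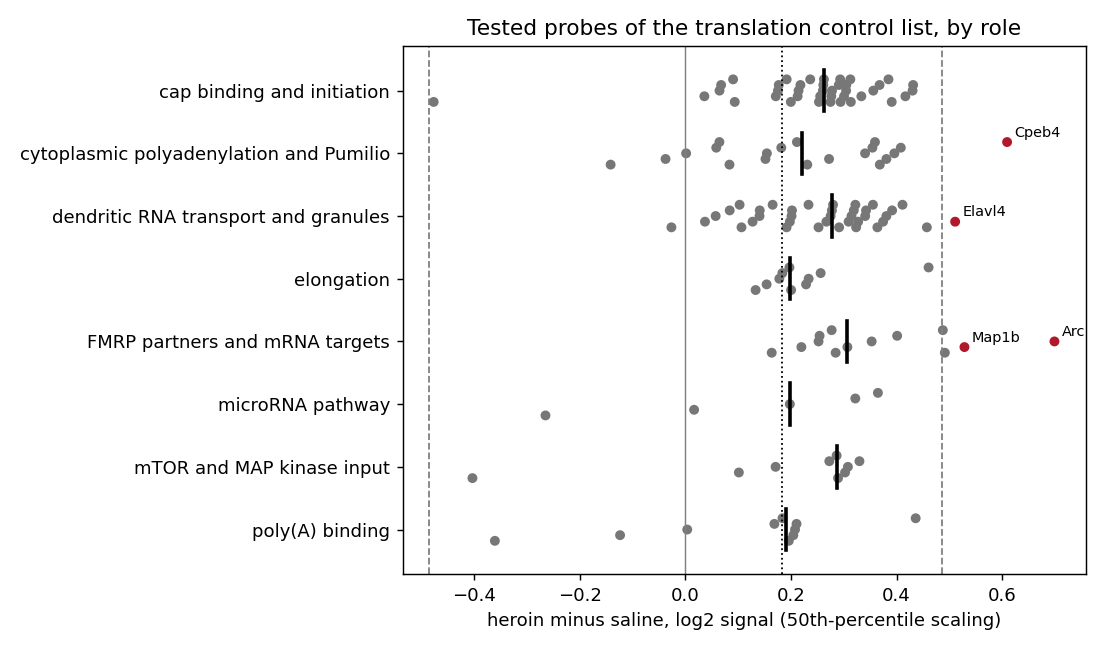
Heroin minus saline log2 difference (horizontal axis, 50th-percentile scaling) of the 143 tested probes of the translation control list by role, with each role's median as a black bar; the dotted line is the median of all probes and the dashed lines a 1.4-fold change either way. The 4 probes past both thresholds are red and named, and 135 of the 143 lie to the right of 0, where 78.7% of all probes lie.

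The genes most like the Fmr1 downstream probe were ranked over the 11 rats, in quantile-normalized log2 signal with group means removed, among 11316 probes with a gene name. Among the 5 highest were Sfrs5 (Pearson r = 0.91), Yme1l1 (r = 0.91), Cltc (r = 0.91) and Acsl1 (r = 0.90). As values from the top of 11316 over 11 arrays that share their normalization, these are a description only.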

How the data were processed

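The authors hybridised Cy3-labelled cRNA to Agilent rat arrays, 1 colour and 1 array per rat. The deposited intensity of each spot had been corrected for background by Feature Extraction (9.5.1.1 per the file headers), without scaling across the arrays. A second deposited file, used as an alternative, gives for 23670 probes a ratio around 1 to the median of the probe.

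Following the methods of the study, spots marked as outliers were left out, intensities were floored at 5 and expressed relative to the 50th percentile of the non-control probes of the same array, and log2 was taken. A probe was detected where at least 0.5 of its spots were well above background. The 25555 probes detected on all 11 arrays, with at least 2 usable arrays per group, were compared with limma 3.58.1 in R 4.3.3 (two-sided; p adjusted by Benjamini-Hochberg). The methods name an analysis of variance without equal variances, which for these groups is the methods' t-test, an alternative. The fit was tested on simulated data with independent noise for each probe and no shift between arrays. That test therefore says nothing about the shift over all probes or about array position. The number of arrays limits the precision. The replicates are separate rats.

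The members and gene lists were chosen with earlier results of these data known. Named genes were every probe of the 8 members, up to 5 probes of the list in each direction with the smallest p past both thresholds, Cyfip1, Cyfip2 and Nufip1, and the 5 genes most like the listed Fmr1 probe, of which 1 is not reported here. Other alternatives were 75th-percentile scaling, quantile normalization, normexp (offset 50), scaling before the floor, keeping marked spots, other detection filters, a replicate block and leaving out each rat. Exons and UTRs were not assigned to probes. RT-qPCR measurements were not used here.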

Additional observations from a re-analysis of the deposited data

Results flagged for a closer look

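In 24 groups of values (12 probes, heroin and saline) 1 rat stood apart from its group on the log2 scale by Dixon's criterion, which chance alone meets in about 1 of 20 groups. This was the Eif4ebp1 upstream probe in heroin rat 5, at 6.06 array medians, where the nearest other heroin rat had 7.44. The gap was 0.650 of the group's range.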

How the results depend on the processing

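Which probes passed both thresholds depended on the scaling and on single rats; the causes were not tested. Over all probes 694 passed, and 457 did with quantile normalization, 126 with normexp, 1560 without a detection filter, 1067 with detection in 1 group, 308 by the methods' t-test, 406 relative to the median change and 343 to 2352 when a rat was left out (343 without saline rat 2, 393 without saline rat 3, 2352 without saline rat 5). The share of these that was higher in heroin was 65.9%, 47.7% with quantile normalization, 4.24% with 75th-percentile scaling, 96.8% with normexp, 30.4% without a detection filter and 43.8% with detection in 1 group.

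Of the member probes 1 passed, and 0 did with 75th-percentile scaling, quantile normalization, normexp or relative to the median change. When a rat was left out 0 to 2 passed: none without saline rat 2, the Eif4e downstream probe in place of Fmr1 without heroin rat 6, and both without saline rat 5 or 6. With the current symbols alone, without Fxr1h and Fxr2h, 1 passed. Of the translation control genes 4 passed, 1 with 75th-percentile scaling or quantile normalization (Eif4g3, none of the 4), 2 with the authors' relative values, 2 by the methods' t-test, 2 relative to the median change and 1 to 15 when a rat was left out (1 without saline rat 3, 2 without saline rat 2 or heroin rat 3, 8 without heroin rat 6, 15 without saline rat 5).

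The log2 difference of the listed Fmr1 probe was positive under every alternative run, 0.28 with quantile normalization, and 0.42 to 0.62 when a rat was left out. That probe was chosen by the same contrast, so nothing is read from its sign. The spread between the Fmr1 probes was 0.27 to 0.75 when a rat was left out. With quantile normalization the log2 difference of Eif4ebp1 turned from positive to -0.14 upstream and -0.11 downstream. That of Pabpc1 turned to -0.063.

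Rats of the same number shared a scan, and the sample labels do not say whether they were also yoked partners. The deviations of same-numbered rats correlated between -0.237 and 0.384. So few values cannot decide whether the rats were paired, and the main fit did not treat their number as a pairing. With the replicate block 809 probes passed both thresholds, 5 with an adjusted p under 0.05, and 1 member probe passed, Fmr1 downstream, by 0.57. Of the translation control genes 4 passed with it, Eif4g3 in place of Map1b. The scan holds the same rats as the replicate number, so a separate slide block was not run. Relative changes and the current-symbol count were alternatives chosen after seeing the data.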
